A study of Mus musculus with 9 samples.

Results

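Polycomb repressive complex 2 (PRC2) is described here through the 10 genes of its core and accessory subunits, which were chosen by name: Ezh1, Ezh2, Eed, Suz12, Rbbp4, Rbbp7, Phf1, Mtf2, Phf19 and Jarid2. All 10 of 10 are among the 18423 genes of a table of FPKM values (a level per transcript length and per library size). The 9 libraries hold poly(A) RNA from glands of the stomach corpus, the acid-secreting region, with 3 libraries in each of 3 genotypes. WT is wild type. Ctrl carries Atp4bCre and Rosa26NICD, that is, Cre recombinase driven by the gene of a parietal cell proton pump subunit and a Rosa26 transgene of NICD, the cleaved and active piece of the Notch receptor. Arid1a_Het carries both of these and Arid1aflox/+, a loxP-flanked copy of the chromatin remodeller gene Arid1a beside a normal one. Recombination is limited to cells that make Cre and to their descendants, while the glands hold all epithelial types, and material came from tumour-bearing corpus or, in stomachs without tumours, from the matching place. No ages are given, and nothing in the labels ties the libraries of a genotype to different mice, so p-values measure the spread between libraries, which may be technical. A bulk library cannot tell fewer cells of a type from less RNA per cell.

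PRC2 places methyl groups on lysine 27 of histone H3, a mark of silenced genes. Ezh2 or Ezh1 supplies the methyltransferase, Eed reads the mark and stimulates the enzyme, Suz12 is the scaffold, and Rbbp4 or Rbbp7 binds histones; Phf1, Mtf2 and Phf19 are the Polycomb-like proteins of one form of the complex, and Jarid2 belongs to the other. Ezh2 is best known from dividing cells and Ezh1 from resting ones, and E2F factors are known activators of Ezh2 and Eed. The complex and BAF, the remodeller that contains Arid1a, are known to oppose each other at many genes.

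The 2 catalytic subunits and the 2 histone-binding subunits are pairs of paralogs, and their upstream sequences are shown because the comparison of each pair recurs in the results. RefSeq on GRCm38.p6 gives a window of 300 bases, 250 before and 50 after the annotated start, for all 10 genes (12 windows, as Mtf2 and Jarid2 have 2 starts each). The 250 bases before the start follow, 5′ to 3′ on the gene's strand, with capitals on CCAAT or its reverse complement ATTGG, the core of a common promoter element. The stretches are chr6:47595031-47595280 (minus strand) for Ezh2, chr11:101226464-101226713 (minus) for Ezh1, chrX:162760122-162760371 (plus) for Rbbp7 and chr4:129335371-129335620 (minus) for Rbbp4.
Ezh2: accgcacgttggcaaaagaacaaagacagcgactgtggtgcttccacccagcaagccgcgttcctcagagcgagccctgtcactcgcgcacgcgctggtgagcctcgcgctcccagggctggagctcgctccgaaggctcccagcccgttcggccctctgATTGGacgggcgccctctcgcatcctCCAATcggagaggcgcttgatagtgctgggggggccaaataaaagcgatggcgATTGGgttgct
Ezh1: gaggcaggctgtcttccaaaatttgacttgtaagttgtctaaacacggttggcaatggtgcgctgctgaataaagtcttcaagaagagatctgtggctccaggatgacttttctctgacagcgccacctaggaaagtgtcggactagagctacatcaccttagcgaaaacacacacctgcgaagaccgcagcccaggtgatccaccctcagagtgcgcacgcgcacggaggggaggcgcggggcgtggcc
Rbbp7: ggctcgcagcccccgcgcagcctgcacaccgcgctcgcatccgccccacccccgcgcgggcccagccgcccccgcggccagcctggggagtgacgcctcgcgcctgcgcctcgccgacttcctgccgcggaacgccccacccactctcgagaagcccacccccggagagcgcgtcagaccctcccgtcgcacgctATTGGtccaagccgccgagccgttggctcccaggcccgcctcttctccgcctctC
Rbbp4: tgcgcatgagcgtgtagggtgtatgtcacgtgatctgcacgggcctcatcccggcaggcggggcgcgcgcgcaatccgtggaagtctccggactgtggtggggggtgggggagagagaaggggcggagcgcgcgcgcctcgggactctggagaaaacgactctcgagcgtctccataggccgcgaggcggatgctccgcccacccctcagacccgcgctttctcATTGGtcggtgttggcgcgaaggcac
The last capital of Rbbp7 is the first base of a CCAAT that runs across its start. Ezh2 had 3 such matches before its start, beginning 90, 64 and 11 bases upstream, Rbbp4 had 1 at 26 bases upstream, and the Ezh1 window had 0. A match was found in 8 of the 12 windows of the members, beside 37.4% of the 32851 windows of all genes.

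E2F words were searched in the same windows on both strands, with TTTCCCGC, TTTCGCGC, TTTGCCGC and TTTGGCGC as the letters and GCGGGAAA, GCGCGAAA, GCGGCAAA and GCGCCAAA as their reverse complements. They do not overlap CCAAT. Ezh2, Suz12 and Phf19 had 1 match each, 3 of the 12 windows, beside 2.26% of the 32851 windows. The sites are shown with 30 bases each, at chr6:47595009-47595038 (minus) for Ezh2, chr11:79992876-79992905 (plus) for Suz12 and chr2:34914166-34914195 (minus) for Phf19, with capitals on the E2F word and, in Ezh2, on the last 2 bases of an ATTGG.
Ezh2 site: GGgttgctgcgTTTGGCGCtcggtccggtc
Suz12 site: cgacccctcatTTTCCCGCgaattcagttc
Phf19 site: gtcaataattcGCGGGAAAacgcgaaaaag
The Ezh2 word begins 4 bases into the transcript, that of Suz12 219 bases upstream of its start and that of Phf19 208 bases upstream. Such matches describe letters only. Windows of the members held 2 to 41 CpG, the lowest at the second Mtf2 start, with a median of 7 over all windows. Each E2F word contains a CpG, so the shares of windows with a match come from windows unlike in CpG content.

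Library depth was 22651385 to 29478481 reads. Arid1a, the targeted gene, was measured at 13.5, 7.79 and 11.97 FPKM in WT, at 14.9, 13.3 and 16.2 in Ctrl and at 8.94, 5.90 and 6.96 in Arid1a_Het. Each Arid1a_Het library was thus below each Ctrl library, but the difference missed the threshold over all genes (log2 fold change -0.95, SE 0.22, adjusted p = 0.299 in limma). WT 2 and Arid1a_Het 2 stood apart: the pepsinogen gene Pgc alone took 16.5% and 17.9% of the summed FPKM there, against 1.49% to 8.38% in the other 7, and their size factors were 0.753 and 0.851, against 1.02 to 1.14. As deposited, the level of the median gene is low in those 2 libraries, but not that of every gene. The proton pump gene Atp4a was at 7584 FPKM in WT 2, against 1234 and 2923 in WT 1 and 3. Of the 10 members, 8 had their lowest value in WT 2. Fold changes below are from limma on log2(FPKM + 1) with an adjusted p threshold of 0.05 over the 11209 genes with at least 1 FPKM in at least 3 libraries; the added 1 makes changes of low genes appear smaller. The median of all tested genes was 0.24 for Ctrl against WT, -0.16 for Arid1a_Het against Ctrl and 0.02 for Arid1a_Het against WT, and median-ratio scaling moved these medians to 0.01, 0.02 and -0.02.

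**Figure D1:**
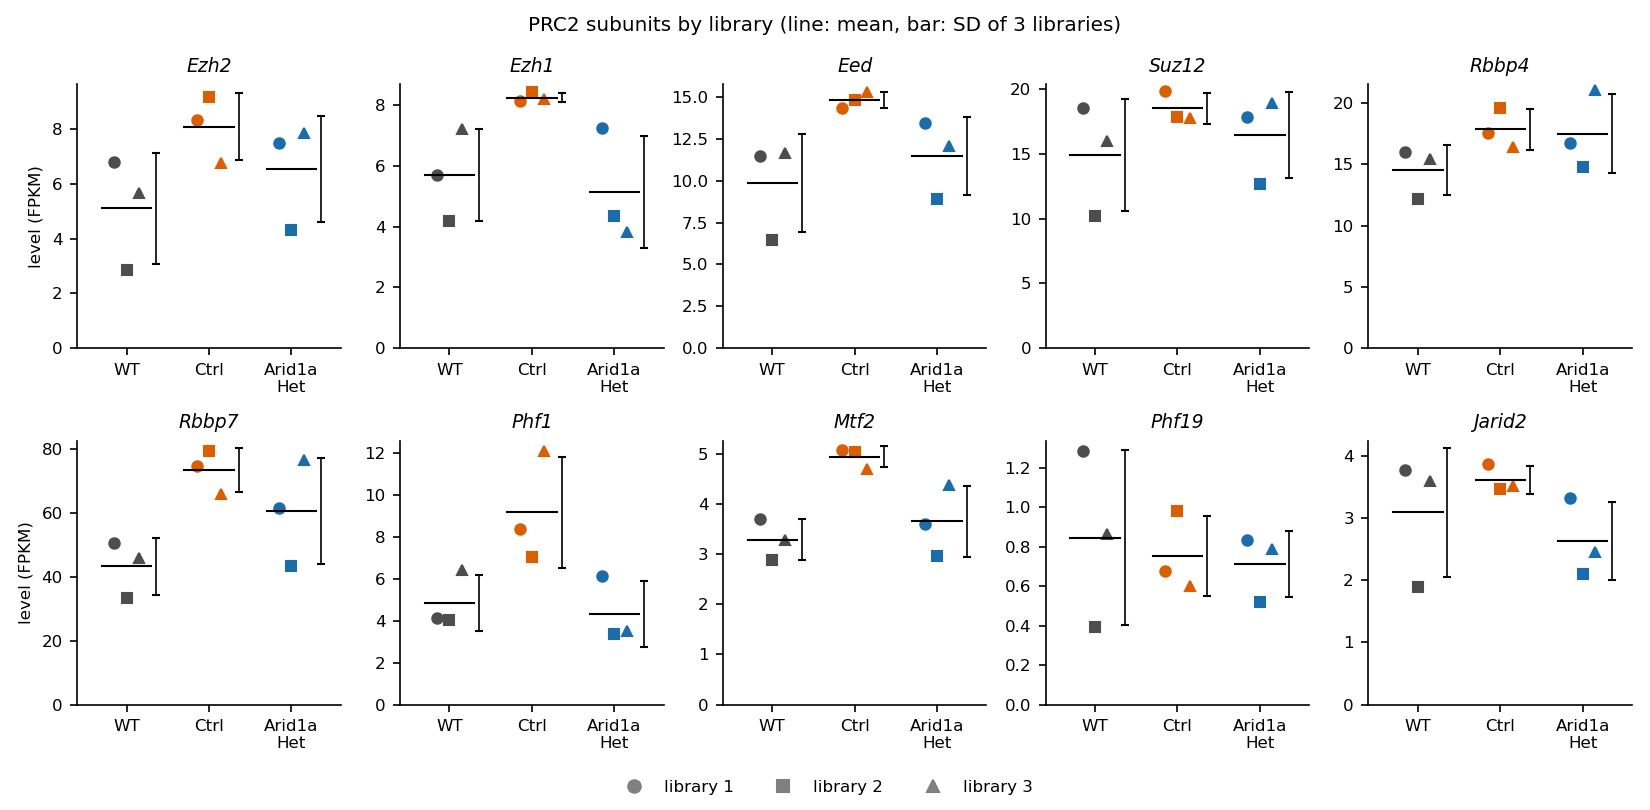
Level of each PRC2 gene in FPKM (y axis, from 0, a scale of its own in each panel) in the WT, Ctrl and Arid1a_Het libraries; symbols are the 3 libraries of a group, lines the mean and bars the SD. Of the 10 genes, 8 are highest in a Ctrl library and 8 are lowest in WT 2.

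Ctrl against WT asks what goes with the Notch transgene and its Cre. Every tested PRC2 gene had a higher mean in Ctrl, by log2 fold changes from 0.21 for Jarid2 to 0.79 for Phf1. Of all tested genes 71.3% were above 0. The members had a median of 0.49 where all tested genes had 0.24. In limma, 0 of the 9 tested members passed the threshold (10.1% of all tested genes did), with 4 at an unadjusted p under 0.05 (Rbbp7, Phf1, Mtf2 and Eed) and 0 called by limma voom on whole reads. Deviations of same-numbered WT and Ctrl libraries correlated at 0.207, 0.336 and 0.138. The labels state no pairing by number. On these correlations alone, the replicate number was also fitted as a block in limma, over all 9 libraries. In Arid1a_Het the numbers did not all go together: WT 3 correlated at -0.279 with Arid1a_Het 3 and at 0.522 with Arid1a_Het 1. Calls with the block are therefore given as an alternative only. With this block Rbbp7 (adjusted p = 0.0348) and Phf1 (adjusted p = 0.0494) passed as higher. These were 2 of 9, where 16.1% of all tested genes were called higher. Without the block the share over all genes was 7.01% higher (786 genes) and 3.04% lower (341), so 69.7% of calls were higher, and with median-ratio scaling 597 were higher and 582 lower, or 50.6%.

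In 6 of the 9 tested members every Ctrl library lay above every WT library: Ezh1, Eed, Rbbp4, Rbbp7, Phf1 and Mtf2. The same held for 33.5% of all tested genes. After median-ratio scaling Rbbp4 no longer separated, which left 5 members beside 20.9% of all genes, and the members' median became 0.26 beside 0.01. Without WT 2 and Arid1a_Het 2 the same 6 members separated, beside 35.0% of all genes.

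**Figure D2:**
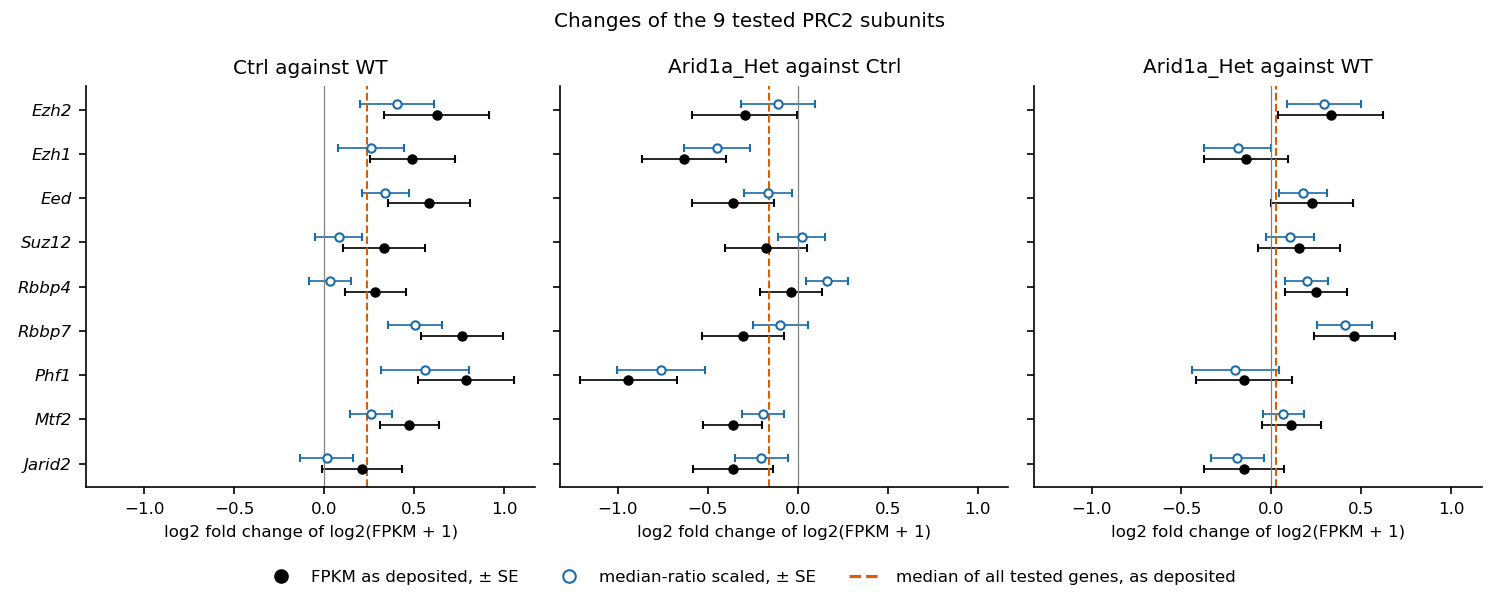
log2 fold change of log2(FPKM + 1), with its SE, of the 9 tested PRC2 genes in the 3 comparisons, for FPKM as deposited (filled) and after median-ratio scaling (open); the dashed line is the median of all tested genes as deposited. All 9 filled points lie above 0 for Ctrl against WT, as do 71.3% of all tested genes. For Arid1a_Het against Ctrl all 9 lie below 0, as do 72.5% of all tested genes. Scaling takes Suz12 and Rbbp4 above 0 in the latter comparison.

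Arid1a_Het against Ctrl asks what goes with the loxP-flanked copy of Arid1a where both groups carry the transgenes. All 9 tested members had a lower mean in Arid1a_Het, from -0.04 for Rbbp4 to -0.94 for Phf1. Of all tested genes 72.5% were below 0. The members' median was -0.36 beside -0.16 for all tested genes. After median-ratio scaling 7 members were lower, Suz12 (0.02) and Rbbp4 (0.16) were not, and the median was -0.16 beside 0.02. In limma 0 of the 9 passed. An unadjusted p under 0.05 was found for 2 (Phf1 and Ezh1), beside 11.6% of all tested genes. Over all tested genes 1 passed, or 0.00892%: the microRNA gene Mir7688. Limma voom called 0 members and 0 genes in all. Every Arid1a_Het library lay below every Ctrl library for Ezh1, Eed, Phf1, Mtf2 and Jarid2, 5 of the 9 beside 22.2% of all tested genes, and after scaling for Ezh1, Phf1 and Mtf2, 3 of the 9 beside 11.5%. Without WT 2 and Arid1a_Het 2 the same 5 separated, beside 23.6%. This comparison and the one before share the Ctrl libraries, so a gene that is high in Ctrl appears in both.

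Arid1a_Het against WT compares both alterations together with neither. The fold changes of the PRC2 genes ran from -0.15 for Jarid2 and Phf1 to 0.46 for Rbbp7, 6 above 0 and 3 below. Of all tested genes 53.4% were above 0 and 46.6% below. The members' median was 0.15 beside 0.02 for all tested genes. In limma 0 of 9 passed (2.75% of all tested genes did), and limma voom called 0. No member had an unadjusted p under 0.05, beside 17.2% of all tested genes. As deposited, the 2 groups overlapped in all 9 members, where 10.6% of all tested genes separated as higher and 8.57% as lower; after scaling Rbbp7 separated as higher, beside 12.4%. Without WT 2 and Arid1a_Het 2, which leaves 2 libraries a group, Ezh2, Eed, Rbbp4 and Rbbp7 separated as higher (26.5% of all genes) and Jarid2 as lower (26.8%).

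Among wild-type libraries Rbbp7 had the highest level of the 10 genes and Phf19 the lowest, and this held in all 9 libraries. The order of WT means was Rbbp7, Suz12, Rbbp4, Eed, Ezh1, Ezh2, Phf1, Mtf2, Jarid2, Phf19. Neighbours whose WT ranges overlapped were Suz12 and Rbbp4, Eed and Ezh1, Ezh1 and Ezh2, Ezh2 and Phf1, and Mtf2 and Jarid2. Rbbp4 and Rbbp7 also serve in complexes other than PRC2.

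Ezh2, the methyltransferase of dividing cells (chr6:47530139-47595341, minus strand, GENCODE M21), was at 6.80, 2.87 and 5.65 FPKM in WT, 8.31, 9.17 and 6.75 in Ctrl and 7.48, 4.31 and 7.84 in Arid1a_Het. Means were 5.11 ± 2.02, 8.08 ± 1.23 and 6.55 ± 1.94 (SD, n = 3 each). Ctrl 3 lay just under WT 1, so all groups overlapped, and the low values were those of WT 2 and Arid1a_Het 2. The log2 fold change of Ctrl against WT was 0.62 (SE 0.29, adjusted p = 0.171 in limma); without WT 2 it was 0.33. Mki67, a marker of dividing cells, was at 31.8, 1.62 and 15.5 FPKM in WT. It was at 31.0, 22.3 and 26.99 in Ctrl and at 17.0, 4.21 and 8.43 in Arid1a_Het. It is 1 of 32 cell cycle genes listed below, whose summed level was 96.7 FPKM in WT 2 and 217 in Arid1a_Het 2. That sum was 375 in Arid1a_Het 1 and 429 in Arid1a_Het 3, an order unlike that of Mki67. For Arid1a_Het against WT the list had a median of 0.51, while mean Mki67 was 9.90 against 16.3 FPKM. The part of cell division in the level of Ezh2 was not tested. Genes whose pattern over the 9 libraries was most like that of Ezh2, by root mean square difference of mean-centred log2(FPKM + 1), were Llph (0.0671), Rfc5 (0.0722) and Smn1 (0.0783), where the median gene was at 0.374.

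Ezh1, the paralog with a weaker methyltransferase (chr11:101191115-101226463, minus strand), was at 5.71, 4.20 and 7.20 FPKM in WT, 8.13, 8.42 and 8.20 in Ctrl and 7.24, 4.36 and 3.81 in Arid1a_Het. All 3 Ctrl libraries lay above the other 6, and they differed little among themselves (8.25 ± 0.154, SD, n = 3) while WT (5.70 ± 1.503) and Arid1a_Het (5.14 ± 1.84) were spread. The fold change of Ctrl against WT was 0.49 (SE 0.23, adjusted p = 0.179), or 0.32 without WT 2, and that of Arid1a_Het against Ctrl -0.63 (SE 0.23, adjusted p = 0.403 in limma). In contrast to Ezh2, its lowest value was not in WT 2 but in Arid1a_Het 3. The most similar genes over the 9 libraries were Trim3 (0.0834), Limk2 (0.0843) and Taz (0.0863), with the median gene at 0.379.

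The ratio of Ezh2 to Ezh1 within a library does not depend on its size factor. It was 1.19, 0.683 and 0.785 in WT, 1.02, 1.09 and 0.824 in Ctrl and 1.03, 0.988 and 2.06 in Arid1a_Het. Both transcripts were thus at about equal FPKM in most libraries, and Arid1a_Het 3 was the only one in which Ezh2 exceeded Ezh1 by more than 1.5 times. Differences of the mean log2 ratio were 0.17 for Ctrl against WT (p = 0.6), 0.40 for Arid1a_Het against Ctrl (p = 0.5) and 0.57 for Arid1a_Het against WT (p = 0.3, exact two-sided permutation tests of 3 against 3, which cannot go below 0.1). Without Arid1a_Het 3 the last 2 were 0.06 and 0.23. Exocrine pancreas markers summed to 1544 FPKM in Arid1a_Het 3 and to 85.4 and 86.6 in the other Arid1a_Het libraries, but also to 3986 in Ctrl 1, whose ratio was 1.02; their part in the ratio was not tested.

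**Figure D3:**
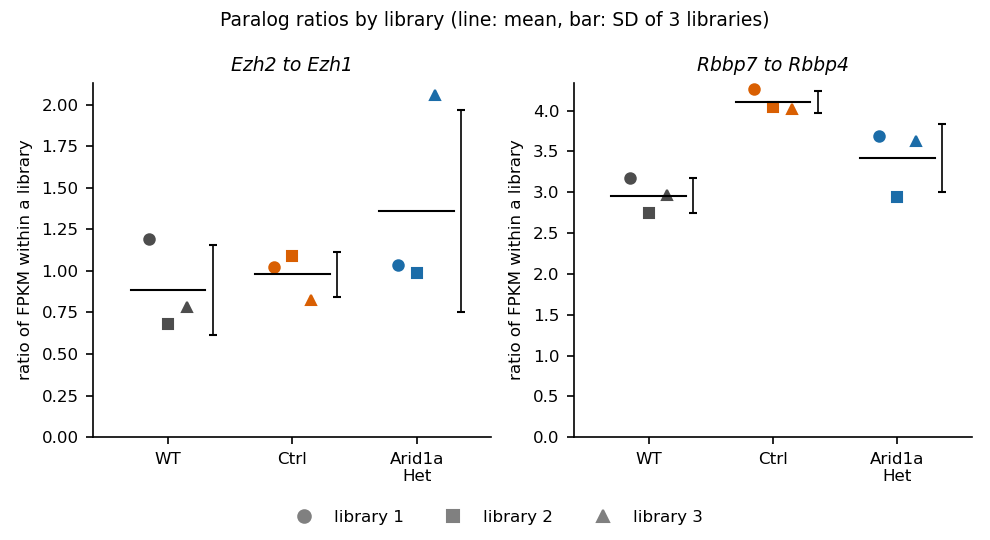
Ratio of FPKM within each library (y axis, from 0) for Ezh2 to Ezh1 and for Rbbp7 to Rbbp4; symbols are libraries, lines the mean and bars the SD of 3. Arid1a_Het 3 stands at 2.06 in the first panel, and the 3 Ctrl libraries lie above the other 6 in the second.

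Eed, the subunit that binds the finished mark (chr7:89954654-89980983, minus strand), was at 11.5, 6.46 and 11.6 FPKM in WT, 14.3, 14.8 and 15.3 in Ctrl and 13.4, 8.92 and 12.1 in Arid1a_Het. Ctrl was the narrowest group (14.8 ± 0.479, SD, n = 3) and lay above the other 6 libraries. The fold change of Ctrl against WT was 0.58 (SE 0.23, adjusted p = 0.1197), or 0.33 without WT 2, and that of Arid1a_Het against Ctrl was -0.36 (adjusted p = 0.531 in limma). An Eed transcript matches the overlapping gene E230029C05Rik over 261 bases at 95% identity or more. The scaffold gene Suz12 (chr11:79993106-80034123, plus strand) was at 18.6, 10.2 and 16.0 FPKM in WT, 19.9, 17.9 and 17.8 in Ctrl and 17.8, 12.7 and 18.9 in Arid1a_Het. It overlapped in every comparison, with 0.33 for Ctrl against WT (SE 0.23, adjusted p = 0.311), which was 0.10 without WT 2.

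Rbbp7, the more abundant histone-binding subunit (chrX:162760402-162779092, plus strand), was at 50.6, 33.4 and 45.7 FPKM in WT, 74.7, 79.4 and 65.8 in Ctrl and 61.6, 43.5 and 76.5 in Arid1a_Het. All Ctrl libraries were above all WT libraries, by a fold change of 0.76 (SE 0.23, adjusted p = 0.0615 in limma). Of all members it came closest to the threshold, and besides the block it passed in 4 other settings: quantile normalization (adjusted p = 0.0439), a fit of WT and Ctrl alone (0.0366), and fits without Arid1a_Het 2 (0.0309) or Arid1a_Het 3 (0.0428). Without both WT 2 and Arid1a_Het 2 it was 0.59 (adjusted p = 0.0557). A processed pseudogene, Gm6382, matches a Rbbp7 transcript over 942 bases at 95% identity or more, and whether reads with several matches were counted is not given in the sources used here. Only 10 to 95 reads per library fell on Gapdh, an abundant transcript that has many processed copies in the genome. Whether uncounted reads affect the level of Rbbp7 or its ratio to Rbbp4 was not tested.

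Rbbp4, its paralog (chr4:129307100-129335370, minus strand), was at 16.0, 12.2 and 15.4 FPKM in WT, 17.5, 19.6 and 16.4 in Ctrl and 16.7, 14.7 and 21.1 in Arid1a_Het. Its Ctrl libraries were above those of WT by a small margin, with 0.28 (SE 0.17, adjusted p = 0.260), which was 0.17 without WT 2 and 0.03 with median-ratio scaling, and it was the member that differed least between Arid1a_Het and Ctrl (-0.04, SE 0.17, adjusted p = 0.934 in limma). Part of its transcript is shared with the overlapping genes Sync and Gm26722. The ratio of Rbbp7 to Rbbp4, which was chosen after its values were seen, was 3.17, 2.74 and 2.96 in WT, 4.26, 4.05 and 4.02 in Ctrl and 3.69, 2.95 and 3.63 in Arid1a_Het. Ctrl lay above the other 6 libraries in this ratio, and WT 2 and Arid1a_Het 2 had the lowest value of their groups.

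Of the Polycomb-like genes Phf1 varied most. Phf1 (chr17:26933052-26937908, plus strand) was at 4.11, 4.02 and 6.40 FPKM in WT, 8.35, 7.005 and 12.1 in Ctrl and 6.11, 3.35 and 3.48 in Arid1a_Het. Each Ctrl library exceeded the other 6, and Ctrl 3 was the highest. The fold changes were 0.79 for Ctrl against WT (SE 0.27, adjusted p = 0.0874) and -0.94 for Arid1a_Het against Ctrl (SE 0.27, adjusted p = 0.361 in limma), the largest in size among the members in both comparisons. Means were 4.84 ± 1.35, 9.15 ± 2.64 and 4.31 ± 1.56 FPKM (SD, n = 3 each), and Arid1a_Het differed from WT by -0.15 (adjusted p = 0.852). Phf1 overlaps Cuta on the other strand.

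Mtf2 (chr5:108065674-108109004, plus strand), the Polycomb-like gene known from stem cells, was at 3.70, 2.89 and 3.29 FPKM in WT, 5.09, 5.04 and 4.71 in Ctrl and 3.61, 2.97 and 4.39 in Arid1a_Het. Ctrl again lay above the other 6 libraries, with 0.47 against WT (SE 0.16, adjusted p = 0.0917) and Arid1a_Het at -0.36 against Ctrl (SE 0.16, adjusted p = 0.435 in limma). An Mtf2 transcript matches the overlapping gene Tmed5 over 396 bases at 95% identity or more. Phf19 (chr2:34893757-34914026, minus strand) was not tested, as 1 library reached 1 FPKM. It held 52 to 150 reads per library, at 1.28, 0.392 and 0.863 FPKM in WT, 0.674, 0.982 and 0.602 in Ctrl and 0.831, 0.519 and 0.785 in Arid1a_Het, with all groups overlapping. Its WT range spanned that of the other groups, and it was the only member whose mean was not above WT in Ctrl.

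Jarid2 (chr13:44729474-44921643, plus strand), which helps recruit the form of PRC2 without Polycomb-like proteins, was at 3.78, 1.90 and 3.61 FPKM in WT, 3.88, 3.47 and 3.51 in Ctrl and 3.33, 2.11 and 2.45 in Arid1a_Het. Ctrl overlapped with WT (0.21, SE 0.22, adjusted p = 0.511), and the difference rested on WT 2, without which it was -0.02; with quantile normalization it was -0.11. All 3 Arid1a_Het libraries were below all Ctrl libraries (-0.36, SE 0.22, adjusted p = 0.526 in limma), and the groups overlapped after median-ratio scaling.

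Other genes of the pathway came from 6 lists. Of the PRC2 accessory genes and inhibitors outside the 10, 4 of 8 symbols are in the table and 3 were tested, with 0 called in any comparison. Over all tested genes 10.1% were called for Ctrl against WT, 0.00892% for Arid1a_Het against Ctrl and 2.75% for Arid1a_Het against WT. Aebp2, a partner of Jarid2 in the complex, was at 5.83, 3.51 and 5.66 FPKM in WT, 8.43, 8.39 and 8.85 in Ctrl and 7.42, 4.25 and 6.80 in Arid1a_Het, so Ctrl lay above the other 6 libraries. Its fold change against WT was 0.70 (SE 0.23, adjusted p = 0.0780), and it passed with the block (adjusted p = 0.0258), without Arid1a_Het 2 (0.0449) and without both WT 2 and Arid1a_Het 2 (0.0368). With the block 16.1% of all tested genes were called higher. The co-repressor gene Lcor had 0.18 (adjusted p = 0.665 in limma), which turned to -0.09 without WT 2.

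PRC1, the partner complex that binds the PRC2 mark and modifies histone H2A, had 23 tested genes, of which 1 was higher and 0 lower in Ctrl than in WT (7.01% and 3.04% of all tested genes were), with a median of 0.35 beside 0.24 for all tested genes. That gene was Cbx6, a reader subunit, at 4.21, 5.02 and 3.39 FPKM in WT, 9.28, 11.5 and 9.19 in Ctrl and 3.03, 5.76 and 8.03 in Arid1a_Het. Its fold change was 1.08 (SE 0.28, adjusted p = 0.0403), and the call was lost in 11 of 19 alternatives, among them median-ratio scaling (adjusted p = 0.114) and each fit without 1 WT or Ctrl library. None of the 23 was called for Arid1a_Het against Ctrl or against WT, beside 0.00892% and 2.75% of all tested genes. Of lowest p for Arid1a_Het against Ctrl was Cbx7, with -0.90 (SE 0.21, adjusted p = 0.332 in limma).

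The genes that remove the marks of PRC2 and PRC1 (Kdm6a, Kdm6b, Bap1 and the Asxl genes) had 5 of 6 tested and 0 called in any comparison. The shares called over all tested genes were 10.1% for Ctrl against WT, 0.00892% for Arid1a_Het against Ctrl and 2.75% for Arid1a_Het against WT. Kdm6b, an H3K27 demethylase, had a mean of 9.25 ± 2.64 FPKM in WT, 15.2 ± 3.51 in Ctrl and 8.995 ± 2.43 in Arid1a_Het (SD, n = 3 each). Its Ctrl libraries lay above all others, with 0.68 against WT (adjusted p = 0.116, with the block 0.0346) and -0.70 for Arid1a_Het against Ctrl (adjusted p = 0.403 in limma). The partners of Rbbp4 and Rbbp7 in deacetylase and chromatin assembly complexes had 21 tested and 0 called in any comparison, beside the same shares. Nearest the threshold was Sap30, of the Sin3 deacetylase complex, with 0.96 for Ctrl against WT (SE 0.27, adjusted p = 0.0512 in limma), followed by the remodeller gene Chd3 (0.81, adjusted p = 0.0896). Both passed with the block, at adjusted p = 0.0376 and 0.0156. With the block 16.1% of all tested genes were called higher, Kdm6b among them. Sap30 also passed with quantile normalization (0.0447), in a fit of WT and Ctrl alone (0.0474) and without WT 1 (0.0280), Arid1a_Het 2 (0.0384) or Arid1a_Het 3 (0.0423), and Chd3 in the fit of WT and Ctrl alone (0.0466) and without Arid1a_Het 2 (0.0333).

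Cell cycle and E2F genes had 31 of 32 tested, with 1 higher and 0 lower in Ctrl than in WT, beside 7.01% and 3.04% of all tested genes. The median was 0.77, beside 0.49 for the PRC2 genes and 0.24 for all tested genes. The summed level of the list was 96.7 to 394 FPKM in WT, lowest in WT 2. It was 407 to 457 in Ctrl and 217 to 429 in Arid1a_Het. As deposited, Ctrl thus lay above WT, with 407 in Ctrl 3 against 394 in WT 1. The size factors of these 2 libraries, 1.09 and 1.03, reverse their order after scaling. The gene called was E2f3, a transcription factor of the S phase programme, at 3.68, 2.03 and 2.95 FPKM in WT and 5.67, 5.07 and 5.80 in Ctrl (0.77, SE 0.20, adjusted p = 0.0452 in limma). That call was lost in 11 of 19 alternatives. None of the list was called for Arid1a_Het against Ctrl or against WT, beside 0.00892% and 2.75% of all tested genes.

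Known PRC2 target genes were mostly at low levels: of 30 symbols 22 are in the table, 17 of these stayed under 1 FPKM in every library, and 4 were tested. Cdkn2a, the locus of the p16 and p19Arf cell cycle inhibitors, was at 0.037, 0.130 and 0 FPKM in WT (1, 4 and 0 reads), 4.29, 6.54 and 4.99 in Ctrl and 6.19, 4.13 and 11.1 in Arid1a_Het. It rose in Ctrl against WT (log2 fold change 2.56, SE 0.29, adjusted p = 0.0020) and in Arid1a_Het against WT (2.86, SE 0.29, adjusted p = 0.0021 in limma), and the call held in all 19 alternatives of both; with so few reads in WT the size of the change depends on the added 1. Cdkn1c, the inhibitor p57, was at 10.03, 6.58 and 9.56 FPKM in WT, 3.63, 3.52 and 1.42 in Ctrl and 2.396, 4.64 and 3.31 in Arid1a_Het, and fell in Ctrl (-1.37, SE 0.30, adjusted p = 0.0239; lost in 6 of 19 alternatives). The growth factor gene Igf2 was at 0.286, 0.803 and 0.308 FPKM in WT, 2.43, 3.85 and 2.78 in Ctrl and 0.768, 1.14 and 3.29 in Arid1a_Het, and rose in Ctrl (1.46, SE 0.32, adjusted p = 0.0246; lost in 8 of 18). Cdkn2a and Igf2 reached 1 FPKM only in the groups where they are high, so the tested targets do not stand for the list.

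**Figure D4:**
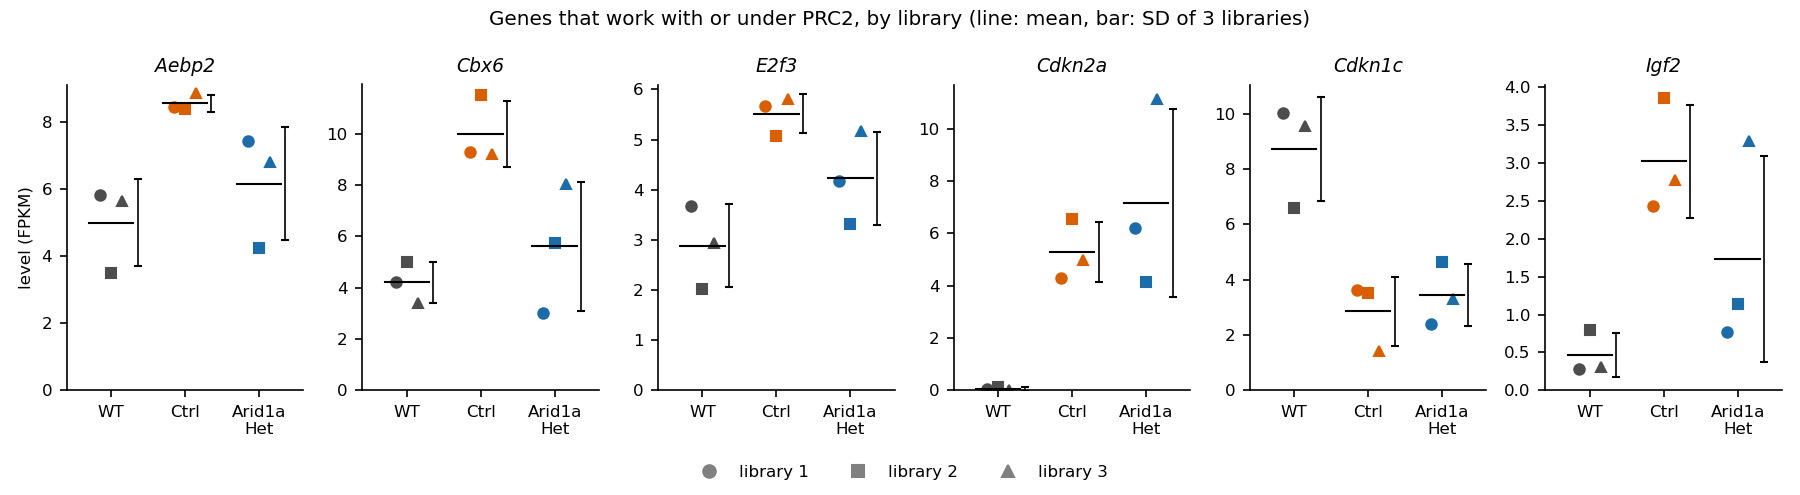
FPKM (y axis, from 0, a scale of its own in each panel) of named genes of the PRC2 and PRC1 complexes, of E2f3 and of known PRC2 targets in the 9 libraries; lines are means and bars SDs of 3 libraries. Cdkn2a is at or near 0 in WT and at 4.13 to 11.1 in the other 6 libraries, while Cdkn1c is highest in WT.

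Summed levels of several cell type marker lists differed between WT and Ctrl, those of parietal cells and leukocytes among them. They cannot tell a change in cell number from a change in RNA per cell. The part of cell composition in the levels of the PRC2 genes was not tested. Parietal cell markers summed to 3896 to 14993 FPKM in WT, 1252 to 2324 in Ctrl and 1603 to 6469 in Arid1a_Het. For Ctrl against WT 3 of 9 markers were called, all lower, beside 3.04% of all tested genes called lower. Leukocyte markers summed to 32.9 to 48.3, 377 to 666 and 399 to 717 FPKM. Of these, 3 of 8 tested were called, all higher, beside 7.01% of all tested genes called higher. Most of the sum was the mast cell proteases Mcpt1 and Mcpt2. S100a8 and Ptprc stayed under 1 FPKM in every WT library, so they passed the filter only through the other groups. Ptprc, which marks all leukocytes, was at 0.296 to 0.461 FPKM in WT, 0.919 to 1.70 in Ctrl and 0.278 to 1.42 in Arid1a_Het. The T cell gene Cd3e (0.0899 to 0.212 in WT, 0.386 to 2.03 in Ctrl) and the neutrophil gene S100a8 (0.248 to 0.930 and 10.7 to 24.2) also separated Ctrl from WT. Cd3e rested on 3 to 66 reads per library. Of the same list, Cd79a (0.156 to 0.325 in WT, 0.0508 to 1.70 in Ctrl) and Csf1r (0.326 to 2.88 and 1.70 to 3.61) overlapped. No marker of either list was at 0 in every library. Other lists also held called markers. Surface mucous cell markers summed to 69678 to 93897 FPKM in WT and 39375 to 45097 in Ctrl, with 2 of 6 called, all lower. Tuft cell markers summed to 9.67 to 15.5 and 4.32 to 8.83, with 1 of 3 tested called lower. Of enteroendocrine markers 4 of 7 were called lower, and of squamous markers 1 of 5 tested higher, beside the same shares. Chief cell, mucous neck cell, exocrine pancreas, stroma and muscle, and erythroid markers had 0 called.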

How the data were processed

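The authors deposited FPKM values for 18423 genes in 9 libraries. RNA was prepared with a stranded poly(A) kit per the labels' protocols, and reads were aligned with STAR 2.4.2a to GRCm38 (mm10) per the submitters' processing notes; the tool that counted reads and made FPKM is not given in the sources used here. Whole reads were recovered from the FPKM values (100% of genes whole within 0.01) for depth and for limma voom.

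Groups follow the labels' genotype. The test was limma 3.58.1 in R 4.3.3 (eBayes with trend) on log2(FPKM + 1) of all 9 libraries as 3 group means, for the 11209 genes that reached 1 FPKM in 3 or more libraries, with Benjamini-Hochberg adjustment and a threshold of 0.05. The fit was tested on simulated data. Deviations of same-numbered WT and Ctrl libraries correlated at 0.207, 0.336 and 0.138. On these data alone, all 9 libraries were also fitted with the number as a block. No block fit was limited to WT and Ctrl. The members and lists were chosen with earlier results of these data known. All 10 members are named, with called genes of each pathway list (at most 4 of lowest p, or the 2 of lowest p where none was called), 3 genes most like Ezh2 and Ezh1, and Arid1a; some of the uncalled are not printed. Positions are from GENCODE M21 on GRCm38, and upstream sequences from RefSeq. Python 3.11.15, numpy 2.4.6, pandas 2.3.3 and matplotlib 3.10.9 were used. Alternatives, 19 in all, varied pseudocount, filter, scaling, samples, block, test and libraries.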

Additional observations from a re-analysis of the deposited data

How the results depend on the processing

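The count of PRC2 genes called for Ctrl against WT moved from 0 to 1 (Rbbp7) with quantile normalization, with only the 2 groups compared and, over the fits that leave out 1 library, ranged from 0 to 1 (without Arid1a_Het 2 or 3); with the replicate block it was 2 (Rbbp7 and Phf1). For the other 2 comparisons it was 0 under every alternative. The block, which pairs libraries by number, changed no other call of a member. It moved the count over all genes to 2473 for Ctrl against WT, where the number was taken as a pairing, and to 2 and 691 for Arid1a_Het against Ctrl and against WT, where same-numbered libraries did not all deviate together (correlations of -0.151, 0.467 and -0.0202, and of 0.252, 0.563 and -0.279). The sign-flip tests of the Ezh2 to Ezh1 log2 ratio within numbers gave p = 0.75, 0.75 and 0.5 in exact tests, where 0.25 is the smallest possible.

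Counts over all genes moved by more than 1.5 times as follows. For Ctrl against WT (1127 calls) there were 748 with a minimum FPKM of 5, 574 without the pancreas-rich libraries Ctrl 1 and Arid1a_Het 3, and 251 to 1473 with 1 library left out. For Arid1a_Het against Ctrl (1 call) there were 0 with a pseudocount of 0.1 and with voom, 4 with no filter, 2 with a minimum FPKM of 5 or quantile normalization, 5 with only the 2 groups compared, 7 without the pancreas-rich libraries and 0 to 22 with 1 library left out, 22 being without Arid1a_Het 3. For Arid1a_Het against WT (308 calls) there were 140 with no filter, 112 with only the 2 groups, 114 without the pancreas-rich libraries and 90 to 726 with 1 library left out. The causes were not tested.

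Signs turned only in differences that had missed the threshold; ranges are over the fits that leave out 1 library. For Ctrl against WT they turned for Jarid2 (-0.11 with quantile normalization, -0.024 without WT 2, with or without Arid1a_Het 2, range -0.024 to 0.34) and Lcor (-0.15 and -0.094 in the same settings, range -0.094 to 0.48). For Arid1a_Het against Ctrl they turned for Suz12 (0.022 with median-ratio scaling) and Rbbp4 (0.16 with median-ratio scaling, 0.099 with quantile normalization, 0.072 without Arid1a_Het 2, with or without WT 2, and 0.030 without Ctrl 2, range -0.17 to 0.072). For Arid1a_Het against WT they turned for Ezh1 (0.014 without Arid1a_Het 3, with or without Ctrl 1, and 0.016 without WT 3, range -0.38 to 0.016), Eed (-0.028 without WT 2, range -0.028 to 0.38), Suz12 (-0.081 without WT 2, range -0.081 to 0.32), Phf1 (0.030 without WT 3, range -0.38 to 0.030) and Mtf2 (-0.00039 without Arid1a_Het 3, with or without Ctrl 1, range -0.00039 to 0.22). The fit without WT 2 and Arid1a_Het 2 was added after seeing the data. With 3 libraries a group, differences of the size seen in the members can be missed. The other settings changed no call of a member.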
